A study of Mus musculus with 4 samples.

Results

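Lung pericytes, the mural cells that wrap capillaries, are known for unusual forms of mitochondrial proteins, and the data described here are the RNA levels of 9 genes. They were *Higd1b* and *Higd1a*, *Cox4i2* and *Cox4i1*, *Ndufa4l2* and *Ndufa4*, and the hypoxia-inducible factor genes *Hif1a*, *Epas1* and *Hif3a*, chosen by name out of 32286 genes counted. The study reports mice of both sexes for its experiments apart from an assay of hydroxyproline, without the sex of each mouse. The cells came from adult mice, 2 wild-type (WT) littermates and 2 *Tubb3*-/- mice. The latter are homozygous for a Cre sequence put in at the start of *Tubb3*, which disrupts the gene for β-III tubulin in every cell of the animal. All 4 mice had received bleomycin into the trachea at 0.8 U/kg, which scars the lung, and the lungs were taken on day 14, so that no untreated lung was part of the comparison. Each mouse gave a sample of whole lung cells, depleted of red blood cells, and a sample enriched for mural cells, in which MCAM+ PDGFRα- cells and MCAM- cells had been sorted and mixed in equal parts after removal of endothelial, immune and epithelial cells. The 3 genes *Higd1b*, *Cox4i2* and *Ndufa4l2* were taken up as pericyte genes, so that their levels in the cell classes are given as a description, with no test.

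Cytochrome c oxidase, complex IV of the respiratory chain, passes electrons to oxygen. *Cox4i1* encodes the usual form of its regulatory subunit 4 and *Cox4i2* a second form known from the lung and from oxygen-sensing cells, while *Ndufa4* encodes a further complex IV subunit and *Ndufa4l2* a related protein that hypoxia induces. *Higd1a* and *Higd1b* encode small inner membrane proteins with the hypoxia-induced gene domain, and *Higd1b* is in wide use as a pericyte marker. *Hif1a* and *Epas1* encode the oxygen-regulated α subunits of HIF-1 and HIF-2, of which the latter is best known from endothelial cells, and *Hif3a* encodes a further α subunit that can restrain the others.

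The 8 libraries, in 2 pools, held 32121 cells, of which 30083 were analyzed after the limits on cell quality and the removal of 777 doublets. The libraries held between 41462258 and 95036340 gene UMIs (unique molecular identifiers, each a captured RNA molecule), and the *Tubb3*-/- libraries were the deeper ones in each pool. Libraries of a pool shared 0 cell barcodes and libraries of different pools 1 to 9. In mural cells without *Higd1b*, *Tubb3* itself had 12.1 and 11.1 CPM (UMIs of a gene for every 1000000 UMIs of the class) in WT and 0.988 and 0.920 CPM in *Tubb3*-/- mice, and in those with *Higd1b* it had 32.4 and 11.9 against 1.06 and 5.93 CPM. The disrupted gene was thus lower in both mice labelled *Tubb3*-/-. The p-values by genotype rest on 2 mice a genotype.

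A cell was counted as a *Higd1b* mural cell when it held at least 1 UMI of *Pdgfrb* and 1 of *Higd1b*, and as a *Myh11* mural cell when it held *Pdgfrb*, at least 3 UMIs of *Myh11* (smooth muscle myosin) and no *Higd1b*. Cells with *Pdgfra*, *Cdh5*, *Ptprc* or *Epcam* stood for fibroblasts, endothelial, immune and epithelial cells, and a cell that matched several rules was dropped. This gave 558 *Higd1b* mural cells (102, 142, 160 and 154 in WT replicates 1 and 2 and *Tubb3*-/- replicates 1 and 2), 2872 *Myh11* mural cells, 8317 *Pdgfra* cells, 3097 *Cdh5* cells, 5245 *Ptprc* cells and 625 *Epcam* cells. Of 799 cells that met the *Higd1b* rule, 241 (30.2%) carried a UMI of another lineage and were left out. The median depth of the *Higd1b* mural cells was 8181 and 7822 UMIs in WT mice and 10484 and 10569 UMIs in *Tubb3*-/- mice.

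The pericyte label held only in part. The summed level of 9 pericyte markers was 2846 to 4104 CPM in *Higd1b* mural cells and 1087 to 1186 CPM in *Myh11* mural cells. Singly, 5 of the 9 were highest in *Higd1b* mural cells, 3 in *Myh11* mural cells and 1 in *Pdgfra* cells. The summed level of 9 smooth muscle markers was 7908 to 15573 CPM in *Higd1b* mural cells, against 26117 to 31275 CPM in *Myh11* mural cells and at most 2292 CPM in *Pdgfra* cells. None of the 9 smooth muscle markers was at 0 in *Higd1b* mural cells, and 399 of the 558 cells (71.5%) also had at least 3 *Myh11* UMIs. Fibroblast markers summed to 2230 to 5254 CPM, against 7853 to 12754 CPM in *Pdgfra* cells. Endothelial, immune and epithelial markers summed to at most 34.8, 134 and 476 CPM. The rules set a part of these sums, since each list holds a gene that the rules use. *Pdgfra*, *Cdh5*, *Ptprc* and *Epcam* were at 0 by the rule. The pericyte marker *Pdgfrb* was required in both mural classes, and the smooth muscle marker *Myh11* in *Myh11* mural cells. The class is therefore called by its rule below, and results are also given for the 159 cells with fewer than 3 *Myh11* UMIs.

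The genes of a pair resemble each other but can be told apart in the reads. In the annotation of mm10, *Cox4i1* lies at chr8:120668222-120674207 and *Cox4i2* at chr2:152754173-152765037 (both plus strand), *Ndufa4* at chr6:11900292-11907497 (minus strand) and *Ndufa4l2* at chr10:127514967-127517154 (plus strand), and *Higd1a* at chr9:121848563-121858362 (minus strand) and *Higd1b* at chr11:102835849-102838040 (plus strand). The aligned coding bases were identical at 69.6% of positions for the *Cox4* pair, 68.2% for the *Ndufa4* pair and 58.7% for the *Higd1* pair. The longest run of bases that the transcripts of a pair shared was 14, 33 and 12 bases, in that order. The first 240 coding bases of each gene, from the GENCODE vM21 transcripts of mm10 and written 5′ to 3′, are shown to let the pairs be compared, with the bases that differ from the partner, or face a gap in it, in capitals.
Cox4i1: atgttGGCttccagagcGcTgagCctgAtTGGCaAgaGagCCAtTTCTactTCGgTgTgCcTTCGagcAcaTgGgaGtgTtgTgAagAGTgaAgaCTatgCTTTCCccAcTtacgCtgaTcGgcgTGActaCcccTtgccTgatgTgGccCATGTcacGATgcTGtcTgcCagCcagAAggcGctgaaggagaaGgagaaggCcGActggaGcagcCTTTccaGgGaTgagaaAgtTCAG
Cox4i2: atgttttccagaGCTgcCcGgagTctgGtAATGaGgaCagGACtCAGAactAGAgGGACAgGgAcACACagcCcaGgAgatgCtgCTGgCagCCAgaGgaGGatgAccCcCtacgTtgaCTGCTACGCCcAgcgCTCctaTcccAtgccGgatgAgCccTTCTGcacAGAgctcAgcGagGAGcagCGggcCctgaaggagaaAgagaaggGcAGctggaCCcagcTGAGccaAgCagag
Ndufa4: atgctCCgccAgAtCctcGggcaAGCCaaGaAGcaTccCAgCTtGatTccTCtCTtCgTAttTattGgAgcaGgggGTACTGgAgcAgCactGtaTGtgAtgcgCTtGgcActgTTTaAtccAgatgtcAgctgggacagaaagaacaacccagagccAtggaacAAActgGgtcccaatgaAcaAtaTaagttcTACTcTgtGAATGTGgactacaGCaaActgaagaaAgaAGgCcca
Ndufa4l2: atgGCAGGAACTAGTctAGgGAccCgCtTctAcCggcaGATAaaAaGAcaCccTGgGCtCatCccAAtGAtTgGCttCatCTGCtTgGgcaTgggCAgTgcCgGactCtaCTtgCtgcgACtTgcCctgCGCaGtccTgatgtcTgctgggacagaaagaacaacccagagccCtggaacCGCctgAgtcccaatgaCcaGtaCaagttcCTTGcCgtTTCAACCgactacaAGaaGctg
Higd1a: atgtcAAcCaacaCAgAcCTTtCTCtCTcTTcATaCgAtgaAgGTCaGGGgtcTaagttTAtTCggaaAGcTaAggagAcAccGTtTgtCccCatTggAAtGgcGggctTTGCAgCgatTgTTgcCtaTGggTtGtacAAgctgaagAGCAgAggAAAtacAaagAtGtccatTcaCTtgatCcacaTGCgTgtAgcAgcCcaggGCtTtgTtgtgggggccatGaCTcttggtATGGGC
Higd1b: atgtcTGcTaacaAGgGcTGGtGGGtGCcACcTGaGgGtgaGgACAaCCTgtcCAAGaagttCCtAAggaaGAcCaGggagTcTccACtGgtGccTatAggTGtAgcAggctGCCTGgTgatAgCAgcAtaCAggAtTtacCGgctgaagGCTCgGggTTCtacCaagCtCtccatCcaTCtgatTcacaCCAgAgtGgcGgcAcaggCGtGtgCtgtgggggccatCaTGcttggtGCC

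*Hif1a* lies at chr12:73901375-73947530 (plus strand), *Epas1* at chr17:86753700-86833410 (plus strand) and *Hif3a* at chr7:17031507-17062427 (minus strand). *Cox4i1*, *Hif1a* and *Epas1* overlap another annotated gene on the same strand, and *Ndufa4l2*, *Higd1a* and *Hif3a* only on the other strand. Whether the counting used strand is not given in the sources used here. This leaves some doubt about the counts of these genes, most for those with an overlap on the same strand. *Higd1a* also shares runs of 90 bases with *Gm9790*, and *Hif1a* with the overlapping *Gm49321*.

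*Higd1b* was measured at 487 and 700 CPM in the *Higd1b* mural cells of the WT mice and at 656 and 801 CPM in those of the *Tubb3*-/- mice, a level set in part by the rule that chose the cells. Outside mural cells it was at most 3.06 CPM, the highest class being *Cdh5* cells at 1.96 to 3.06 CPM, and the 625 *Epcam* cells held 7 UMIs in all. Its partner *Higd1a* was near to even across the lung. It had 109 and 100 CPM in WT and 132 and 111 CPM in *Tubb3*-/- *Higd1b* mural cells, and the 24 class sums of *Higd1a* lay between 83.1 and 159 CPM, lowest in *Ptprc* and highest in *Epcam* cells. Against *Myh11* mural cells (145, 125, 141 and 132 CPM in the same order of mice) *Higd1a* was lower in *Higd1b* mural cells in each mouse.

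*Cox4i2* gave more UMIs than any of the other members in *Higd1b* mural cells. It had 1009 and 1738 CPM in WT and 1181 and 1378 CPM in *Tubb3*-/- mice. *Myh11* mural cells had 58.9, 70.2, 59.0 and 63.4 CPM, *Cdh5* cells 6.22 to 11.4 CPM, *Epcam* cells 4.48 to 9.52 CPM, *Pdgfra* cells 3.54 to 5.02 CPM and *Ptprc* cells 1.79 to 2.17 CPM. The 2 mural classes did not overlap, and neither overlapped another class, whereas the ranges of *Epcam* cells overlapped those of *Cdh5* and *Pdgfra* cells. Within each mouse, *Cox4i2* was 17.1-fold to 24.7-fold higher in *Higd1b* than in *Myh11* mural cells.

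*Cox4i1*, by contrast, differed little. It had 645 and 564 CPM (WT) and 778 and 689 CPM (*Tubb3*-/-) in *Higd1b* mural cells and 888, 911, 887 and 878 CPM in *Myh11* mural cells, with all 24 class sums between 533 and 929 CPM. As a result, the ratio of the isoforms turned over in *Higd1b* mural cells. For every 100 UMIs of *Cox4i1* these cells held 156 and 308 UMIs of *Cox4i2* in WT against 152 and 200 in *Tubb3*-/- mice, whereas *Myh11* mural cells held 6.63, 7.71, 6.65 and 7.22. The other classes held 0.199 to 2.14, with *Cdh5* cells at the upper and *Ptprc* cells at the lower end. The method counts RNA 3′ ends, 1 UMI for a captured molecule whatever its length, and how well each gene is captured was not measured, so that the ratio serves to compare classes and is not a count of proteins.

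**Figure D1:**
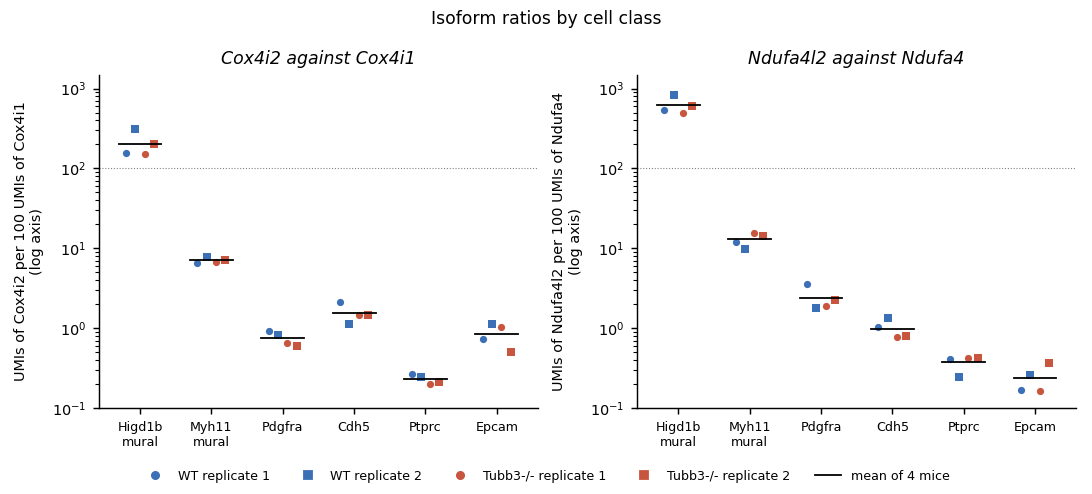
Isoform ratios by cell class and mouse: UMIs of *Cox4i2* per 100 UMIs of *Cox4i1* (left) and of *Ndufa4l2* per 100 of *Ndufa4* (right), each on a log axis, with a point for each of the 4 mice, a black line at their mean and a dotted line where both isoforms are equal. All 4 points of the *Higd1b* mural cells lie above 100 in both panels, and all points of the other 5 classes lie at or below 15.7.

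The *Ndufa4* pair was more uneven still. *Ndufa4l2* had 814 and 888 CPM in WT and 837 and 944 CPM in *Tubb3*-/- *Higd1b* mural cells, against 52.6, 43.6, 70.8 and 67.6 CPM in *Myh11* mural cells. It was 6.56 to 12.9 CPM in *Pdgfra* cells, 3.12 to 5.33 CPM in *Cdh5* cells, and at most 2.56 CPM in *Epcam* and *Ptprc* cells. Unlike *Cox4i1*, the usual isoform *Ndufa4* was itself low in *Higd1b* mural cells, at 149 and 107 CPM (WT) and 167 and 157 CPM (*Tubb3*-/-).

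*Myh11* mural cells had 434, 450, 452 and 471 CPM of *Ndufa4*, and the lowest class sum outside *Higd1b* mural cells was 310 CPM in *Ptprc* cells, so that the *Higd1b* mural cells of every mouse lay below every other class. For every 100 UMIs of *Ndufa4*, *Higd1b* mural cells held 546 and 831 UMIs of *Ndufa4l2* in WT against 501 and 603 in *Tubb3*-/- mice. *Myh11* mural cells held 12.1, 9.69, 15.7 and 14.4, and the other classes at most 3.57. The ratio was thus 31.9-fold to 85.8-fold higher in *Higd1b* than in *Myh11* mural cells of the same mouse, and that of the *Cox4* pair 22.8-fold to 40.0-fold.

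Both ratios were larger in the *Higd1b* mural cells with few *Myh11* UMIs than in the whole class. In the 159 *Higd1b* mural cells with fewer than 3 *Myh11* UMIs, *Cox4i2* had 277, 478, 260 and 354 UMIs per 100 of *Cox4i1*, and *Ndufa4l2* had 769, 1691, 763 and 1644 per 100 of *Ndufa4*, in WT replicates 1 and 2 and *Tubb3*-/- replicates 1 and 2. The summed smooth muscle markers of those cells, which hold *Myh11* itself, were 2363 to 5647 CPM. Their *Ndufa4* was 56.6 to 157 CPM and their *Cox4i1* 507 to 721 CPM. In the libraries of whole lung cells alone, with 65 *Higd1b* mural cells, the ratios were 296, 465, 276 and 141 for the *Cox4* pair and 1041, 821, 1024 and 535 for the *Ndufa4* pair, in the same order.

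**Figure D2:**
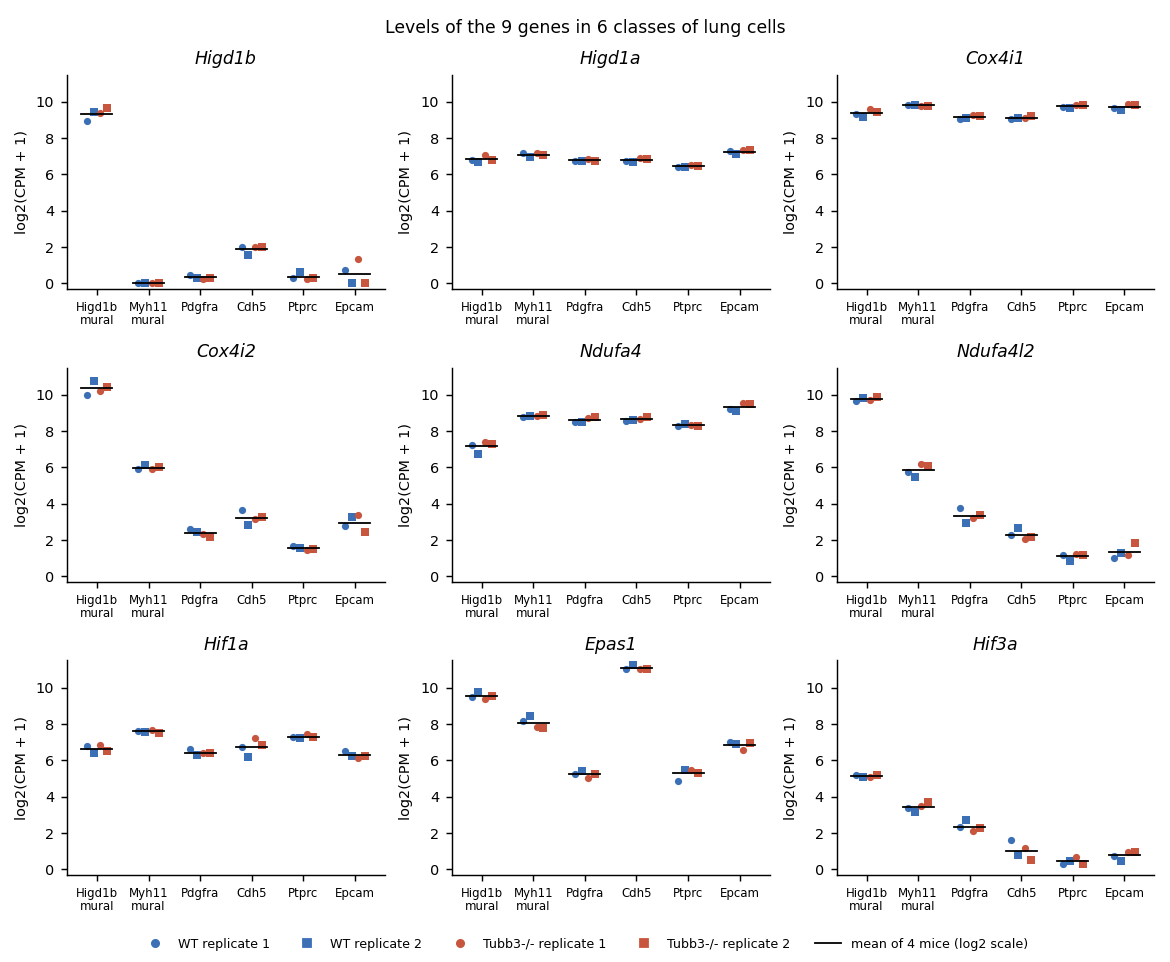
Levels of the 9 genes in the 6 cell classes as log2(CPM + 1), with a point for each of the 4 mice and a black line at the mean of the 4 values on that scale. *Cox4i2* and *Ndufa4l2* step down from *Higd1b* to *Myh11* mural cells and again to the other classes, *Ndufa4* is lowest in *Higd1b* mural cells, and *Epas1* is highest in *Cdh5* cells.

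Among the HIF genes, *Epas1* stood highest. *Higd1b* mural cells had 717 and 875 CPM in WT and 668 and 759 CPM in *Tubb3*-/- mice, *Myh11* mural cells 286, 353, 231 and 221 CPM, and *Cdh5* cells, the known site of HIF-2α, 2080, 2409, 2082 and 2118 CPM. *Epcam* cells had 93.1 to 127 CPM, while *Pdgfra* cells (32.2 to 42.3 CPM) and *Ptprc* cells (28.3 to 44.0 CPM) overlapped at the low end. *Hif3a* was a rare transcript that followed another order. It had 35.5, 33.1, 32.8 and 36.2 CPM in *Higd1b* mural cells, on 35 to 62 UMIs a mouse, 7.85 to 12.0 CPM in *Myh11* mural cells, 3.36 to 5.51 CPM in *Pdgfra* cells and at most 2.10 CPM in the remaining classes.

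*Hif1a* had 110, 84.8, 113 and 91.3 CPM in *Higd1b* mural cells, below the 195, 191, 202 and 182 CPM of *Myh11* mural cells. Its ranges in *Pdgfra* cells (78.8 to 98.4 CPM) and *Cdh5* cells (71.6 to 147 CPM) overlapped those of *Higd1b* mural cells. In both mural classes and in *Cdh5* and *Epcam* cells, the UMIs of *Epas1* thus outnumbered those of *Hif1a* in every mouse. In *Ptprc* cells, with 147 to 175 CPM of *Hif1a*, and in *Pdgfra* cells the order was the opposite.

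The 6 genes that had not been taken up as pericyte genes were tested between classes in a model over 24 sums with the mouse as a block (edgeR's quasi-likelihood test, Benjamini-Hochberg adjustment over 16609 genes). A gene was called at an adjusted p under 0.05. Against *Myh11* mural cells all 6 were called, 4 lower and 2 higher, where 20.6% of all genes were called lower and 12.0% higher. On the log2 scale *Ndufa4* fell by 1.89 (SE 0.10, adjusted p = 5.18e-12), *Hif1a* by 1.20 (SE 0.14, adjusted p = 9.06e-07), *Cox4i1* by 0.67 (SE 0.08, adjusted p = 7.11e-07) and *Higd1a* by 0.51 (SE 0.08, adjusted p = 2.68e-05), each in 4 of 4 mice. With library totals in place of TMM scaling the differences of *Cox4i1* and *Higd1a* were -0.42 and -0.26, both still called. *Epas1* rose by 1.23 (SE 0.13, adjusted p = 1.20e-07) and *Hif3a* by 1.53 (SE 0.23, adjusted p = 1.62e-05), each in 4 of 4 mice.

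Against the other classes, *Ndufa4* was lower in *Higd1b* mural cells by 1.54 (*Ptprc* cells) to 2.29 (*Epcam* cells) on the log2 scale and *Hif3a* higher by 2.73 (*Pdgfra* cells) to 6.07 (*Ptprc* cells), all called by edgeR. *Epas1* was higher than in *Pdgfra*, *Ptprc* and *Epcam* cells by 4.02, 3.88 and 2.57, and lower than in *Cdh5* cells by 1.61 (log2 difference -1.61, SE 0.13). The background shares were 12.9% of all genes called higher and 25.6% lower against *Pdgfra* cells, 20.6% and 29.4% against *Cdh5* cells, 27.5% and 39.2% against *Ptprc* cells, and 24.7% and 31.5% against *Epcam* cells.

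The remaining genes differed by smaller amounts. *Cox4i1* was called lower than in *Ptprc* cells (-0.77, SE 0.08) and *Epcam* cells (-0.46, SE 0.08), *Hif1a* lower than in *Ptprc* cells (-1.06, SE 0.14) and *Higd1a* lower than in *Epcam* cells (-0.56, SE 0.08). *Higd1a* was also called lower than in *Pdgfra* cells (-0.25, SE 0.08, edgeR adjusted p = 0.0155), but its CPM was higher in *Higd1b* mural cells in 3 of 4 mice, and the difference was +0.06 with library totals in place of TMM scaling. For *Cox4i1* against *Pdgfra* cells the difference was -0.08 (not called) with TMM scaling and +0.23 (called) with library totals, and for *Hif1a* -0.10 and +0.22 (neither called). Small differences from *Pdgfra* cells therefore have no direction that holds under both scalings, and the same is true of *Higd1a* against *Cdh5* and *Ptprc* cells.

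**Figure D3:**
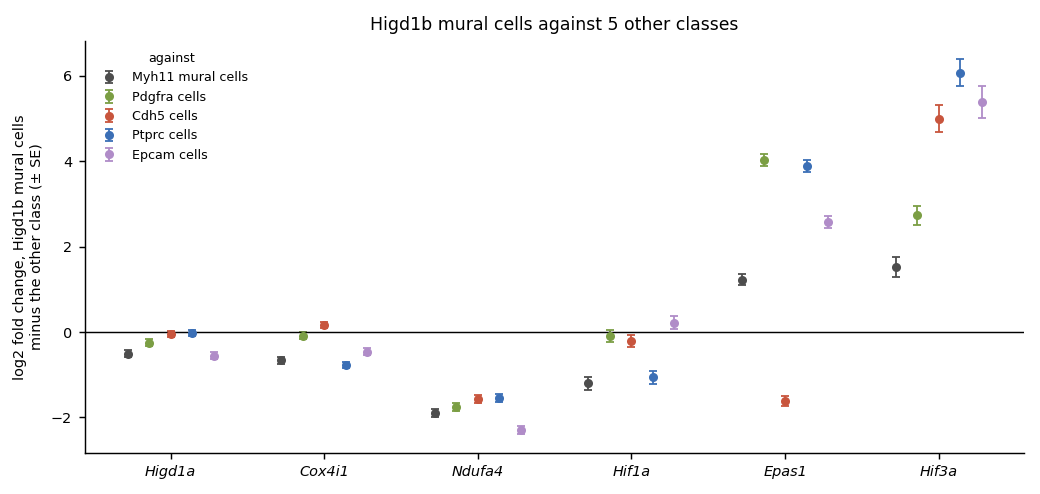
Log2 fold changes of *Higd1b* mural cells against each of the 5 other classes for the 6 genes tested between classes, with standard errors from edgeR over 4 mice. *Ndufa4* lies between -1.54 and -2.29 and *Hif3a* at or above 1.53 against every class, while *Epas1* is above 0 against 4 classes and at -1.61 against *Cdh5* cells. Changes of *Higd1a* against *Pdgfra*, *Cdh5* and *Ptprc* cells and of *Cox4i1* and *Hif1a* against *Pdgfra* cells flip with another scaling.

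The scaling also set the balance of all genes. Against *Myh11* mural cells, the median log2 difference of all genes was -0.12 with TMM scaling and 0.11 with library totals, and 36.8% of the called genes were higher with TMM scaling, 64.8% with library totals and 50.4% with DESeq2. For *Pdgfra* cells the median was -0.17 and 0.14, and the share higher was 33.5%, 64.1% and 46.9%. For *Ptprc* cells it was -0.22 and 0.17, and the share 41.2%, 58.4% and 46.0%. The differences of *Ndufa4*, *Epas1* and *Hif3a* given above are several times larger than these shifts.

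Most other subunits of complex IV were also lower in *Higd1b* than in *Myh11* mural cells, though by less than *Ndufa4*. Of 17 such genes, 12 were called lower and 0 higher, with a median of -0.54 where that of all genes was -0.12. Of all genes, 20.6% were called lower and 12.0% higher. The 2 most abundant, both encoded in mitochondrial DNA, were *mt-Co3* (6605 against 9115 CPM on average over 4 mice, log2 difference -0.72, SE 0.11) and *mt-Co2* (4546 against 5960 CPM, -0.64, SE 0.10). With library totals in place of TMM, 10 were called lower and 0 higher, and with DESeq2 12 and 0. The median share of mitochondrial UMIs in a cell was 3.25% in *Higd1b* and 4.38% in *Myh11* mural cells, and lower in the former in each mouse. Its part in the values of *mt-Co3* and *mt-Co2* was not tested. Against *Pdgfra* cells the list did not keep a direction, with 7 lower and 0 higher under TMM and 2 lower and 5 higher under library totals. Under TMM, 25.6% of all genes were called lower and 12.9% higher against *Pdgfra* cells. *Higd2a*, the other HIG1 domain gene detected, differed by -0.30 (SE 0.09) from *Myh11* mural cells with TMM scaling and by -0.05, not called, with library totals, and its ranges of 90.8 to 123 CPM and 106 to 110 CPM overlapped.

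Genes that HIF factors are known to induce were mostly lower as well. Of 28 HIF target genes, 21 were called lower and 2 higher in *Higd1b* than in *Myh11* mural cells (18 and 3 with library totals, 20 and 2 with DESeq2), with a median of -0.88. Of all genes, 20.6% were called lower and 12.0% higher in this contrast with TMM scaling, with a median of -0.12. The 2 most abundant were the glycolytic genes *Gapdh* (249 to 416 against 553 to 650 CPM, log2 difference -1.14, SE 0.10) and *Aldoa* (291 to 332 against 404 to 427 CPM, -0.64, SE 0.08). The 2 genes that were higher, named here after their values were seen, were *Hilpda*, which limits the breakdown of stored fat (60.8, 132, 31.7 and 56.3 CPM against 12.2 to 14.4 CPM, log2 difference 2.00, SE 0.26), and *Pfkfb4*, a regulator of glycolysis (9.12 to 28.8 against 7.83 to 11.8 CPM, 0.84, SE 0.24). Of 11 HIF partners and regulators, 4 were called lower and 0 higher, but 1 lower and 2 higher with library totals and 1 and 1 with DESeq2, so that this list has no direction that holds. The most abundant, the elongin B gene *Elob* and *Rbx1*, both parts of the ligase that marks HIF α subunits for breakdown, had 451 and 240 CPM on average in *Higd1b* and 449 and 205 CPM in *Myh11* mural cells. *Elob* was among the 4 called lower with TMM scaling (-0.25, SE 0.09), although its CPM was higher in 3 of 4 mice. These 4 lists were drawn up with earlier results of the data known, and smooth muscle markers moved with the same contrast as given above, whose part in these counts was not tested.

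*Higd1b* mural cells were not uniform, and *Cox4i2*, *Ndufa4l2* and *Ndufa4* varied with the number of *Higd1b* UMIs in a cell. The 134 cells with 1 UMI, the 72 with 2 and the 352 with 3 or more had median depths of 10125, 9283 and 9022 UMIs, so that the last were not the deeper cells. *Cox4i2* had 244, 509 and 1941 CPM (means of 4 mice) in the 3 groups, with ranges over mice of 163 to 318, 306 to 759 and 1552 to 2212 CPM. *Ndufa4l2* had 346, 674 and 1140 CPM, with ranges of 293 to 411, 597 to 721 and 1033 to 1236 CPM. Neither gene's ranges overlapped between cells with 1 UMI and cells with 3 or more.

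*Ndufa4* ran the other way, at 290, 174 and 76.3 CPM, with ranges of 265 to 330, 121 to 238 and 56.7 to 99.1 CPM that did not overlap. *Cox4i1* stayed nearly level, at 710, 651 and 665 CPM, as did *Higd1a*, at 108, 113 and 113 CPM. *Epas1* was 594, 861 and 812 CPM and *Hif1a* 139, 107 and 84.9 CPM. Smooth muscle markers summed to 16680 to 21917 CPM in cells with 1 UMI, 8502 to 19151 CPM with 2, and 4936 to 11340 CPM with 3 or more, and pericyte markers to 1670 to 2493, 2640 to 4361 and 3424 to 4515 CPM. The part of either in the levels of the members was not tested. This split was chosen after the data had been seen and is given without a test.

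**Figure D4:**
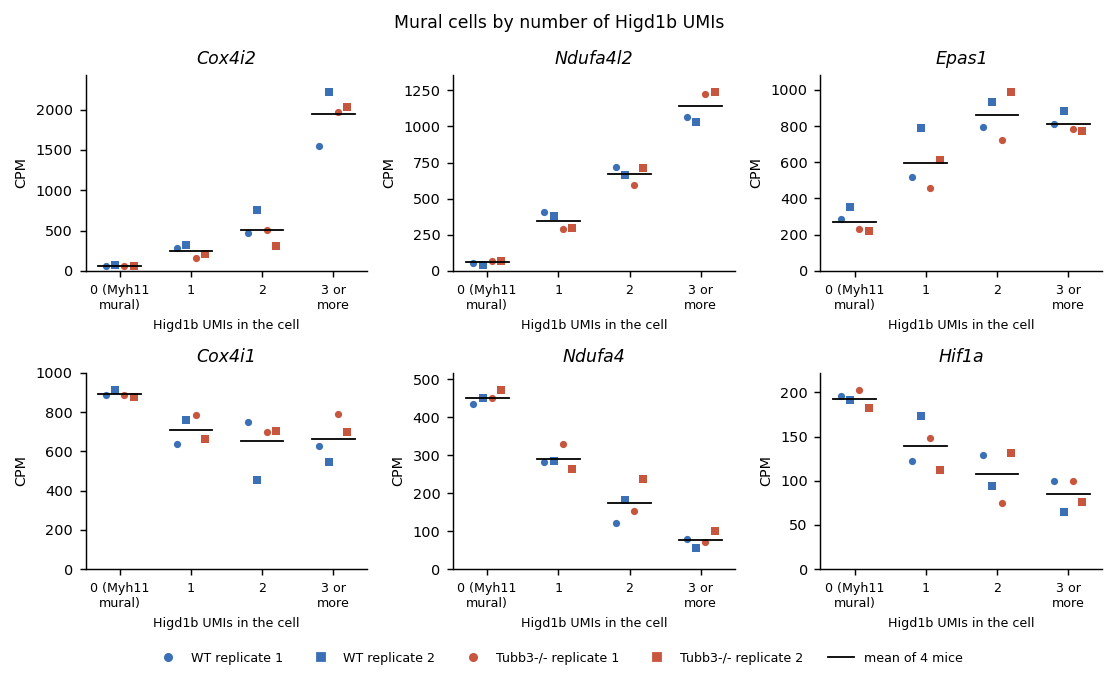
Levels in CPM of 6 genes in mural cells by the number of *Higd1b* UMIs in the cell, with *Myh11* mural cells (none) at the left, a point for each of the 4 mice and a black line at their mean. *Cox4i2* reaches 1552 to 2212 CPM and *Ndufa4* is at 56.7 to 99.1 CPM in cells with 3 or more.

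Per cell, most *Higd1b* mural cells held both pericyte isoforms. After each cell was thinned at random to 2000 UMIs (3 shallower *Higd1b* mural cells were left out), 66.3% to 82.3% of the cells of a mouse held a *Cox4i2* UMI and 73.3% to 80.8% an *Ndufa4l2* UMI, against 11.0% to 13.2% and 7.99% to 10.6% of *Myh11* mural cells. In *Ptprc* cells, which should lack both genes, the shares were 0.263% to 0.343% and 0.0856% to 0.430% (138 shallower cells left out). At 2000 UMIs, *Ndufa4* was found in 15.6% to 26.0% of *Higd1b* mural cells and in 53.3% to 57.1% of *Myh11* mural cells, and *Cox4i1* in 63.4% to 72.3% and 76.0% to 79.3%. *Epas1* was found in 65.4% to 78.0% of *Higd1b* mural cells, 33.1% to 49.0% of *Myh11* mural cells and 90.5% to 93.1% of *Cdh5* cells. *Hif3a* was found in 3.55% to 7.14% of *Higd1b* and 1.65% to 2.51% of *Myh11* mural cells at this depth. Without thinning, at median depths of 9310 UMIs in *Higd1b* and 11335 UMIs in *Myh11* mural cells, the shares were 89.4% to 95.8% and 37.3% to 43.8% for *Cox4i2* and 89.2% to 95.1% and 15.5% to 26.4% for *Ndufa4l2*. For *Ndufa4* they were 37.3% to 58.4% and 90.7% to 93.2%, and for *Hif3a* 19.0% to 28.8% and 7.06% to 12.5%.

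Across the 24 class sums, the genes whose log2(CPM + 1) was closest to *Cox4i2* by Pearson's r, among 8966 genes with at least 10 CPM on average in *Higd1b* mural cells, were *Trarg1*, *Kcnj12*, *Vsnl1*, *Ate1* and *Klhl23* (r from 0.98 to 0.96). Those closest to *Ndufa4l2* were *Trpc6*, *Gucy1a1*, *4930447N08Rik*, *Gucy1b1* and *Klhl23* (r all 0.98). *Trpc6* is a calcium channel gene and *Gucy1a1* and *Gucy1b1* encode the nitric oxide receptor. They had 640 to 1606, 1022 to 2564 and 799 to 1689 CPM in *Higd1b* mural cells and 18.2 to 36.6, 201 to 272 and 202 to 255 CPM in *Myh11* mural cells. *Cox4i2* and *Ndufa4l2* had r = 0.96 with each other, and r = 0.91 and 0.97 with *Hif3a*. These values describe 6 classes of the same 4 mice, whose sums share libraries and differ in depth.

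By genotype, no member was called in *Higd1b* mural cells. There, edgeR's quasi-likelihood test called 0 of 10083 genes at an adjusted p under 0.05 (0.00%), with 636 genes at an unadjusted p under 0.05, and DESeq2 called 1. Of the 8 members tested (*Higd1b* was not, since the rule used it), 0 were called. *Higd1a*, *Cox4i1* and *Ndufa4* were higher in each *Tubb3*-/- mouse than in either WT mouse by the CPM given above. Among all genes tested, 18.7% had both *Tubb3*-/- mice above both WT mice, and 37.0% did not overlap in either direction. This order of mice was not particular to *Higd1b* mural cells. *Epcam* cells had it for each of these genes, *Pdgfra* cells for *Cox4i1* and *Ndufa4*, and *Myh11* mural cells for *Ndufa4*. *Ptprc* cells had it for *Higd1a* and *Cox4i1*, and *Cdh5* cells for *Higd1a* and *Ndufa4*. In *Myh11* mural cells *Cox4i1* was lower in each *Tubb3*-/- mouse.

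The log2 differences (*Tubb3*-/- minus WT) were 0.34 for *Ndufa4* (SE 0.22), 0.27 for *Cox4i1* (SE 0.22) and 0.21 for *Higd1a* (SE 0.19), with edgeR adjusted p-values of 0.793, 0.825 and 0.832. With 1 mouse left out they were 0.096 (without WT replicate 2) to 0.65 (without WT replicate 1) for *Ndufa4*, 0.16 to 0.43 (the same mice) for *Cox4i1*, and 0.065 to 0.35 (without *Tubb3*-/- replicates 1 and 2) for *Higd1a*. In the whole-cell libraries alone, *Higd1a* and *Ndufa4* overlapped between genotypes in CPM. *Ndufa4* also overlapped with at least 2 *Higd1b* UMIs (87.3 and 76.5 in WT against 86.1 and 121.5 CPM) and with *Myh11* under 3. *Higd1a* also overlapped with lineage markers at 2 or more UMIs. The other 5 members overlapped between genotypes in CPM, with differences from -0.16 (*Epas1*, SE 0.21) to 0.06 (*Hif1a*, SE 0.22). The smooth muscle markers of the class summed to 12546, 7908, 15573 and 12690 CPM in WT replicates 1 and 2 and *Tubb3*-/- replicates 1 and 2, and *Ndufa4* was lowest and highest in the same 2 mice. The part of this, and of the greater depth of the *Tubb3*-/- cells, in these values was not tested. With cells thinned to 2000 UMIs, *Higd1a* was found in 19.5% and 18.8% of cells in *Tubb3*-/- mice against 19.8% and 22.7% in WT mice. Without thinning the shares were 71.25% and 64.9% against 55.9% and 54.2%. *Cox4i1* (72.3% and 72.1% against 63.4% and 67.4%) and *Ndufa4* (20.1% and 26.0% against 19.8% and 15.6%) stayed higher at 2000 UMIs. At 4000 UMIs *Higd1a* and *Ndufa4* overlapped between genotypes. *Epas1* was found in fewer cells of *Tubb3*-/- mice, without overlap, at 2000 UMIs (65.4% and 72.1% against 75.25% and 78.0%) and at 4000 UMIs. *Cox4i2* (76.4% and 76.35% against 83.2% and 93.0%) and *Ndufa4l2* (81.5% and 84.5% against 85.3% and 91.4%) were lower without overlap at 4000 UMIs only. *Hif1a* was higher at 2000 and lower at 4000 UMIs, without overlap at either. Without thinning, *Epas1*, *Cox4i2* and *Ndufa4l2* overlapped.

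No difference in the isoform ratios by genotype could be called with these mice. In *Higd1b* mural cells the log2 ratio of *Cox4i2* to *Cox4i1* differed by -0.33 in *Tubb3*-/- against WT mice ( exact permutation p = 0.667) and that of *Ndufa4l2* to *Ndufa4* by -0.29 ( exact permutation p = 0.667), both with overlapping mice and both two-sided. WT replicate 2 had the highest value of both. Without it, the differences were 0.16 and 0.0092. In *Myh11* mural cells the differences were -0.05 (exact permutation p = 1) and 0.47 (exact permutation p = 0.33), and the latter did not overlap between genotypes. With 2 mice against 2, 0.33 is the smallest p this test can give. The shares of cells with a UMI, tested in the same way, gave p-values from 0.33 to 1 in both mural classes.

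**Figure D5:**
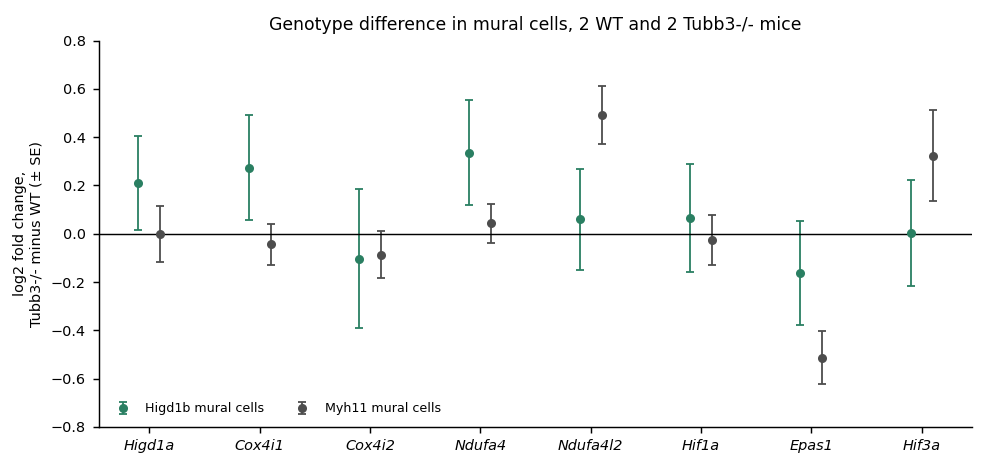
Log2 fold changes of *Tubb3*-/- against WT mice (2 and 2) for 8 genes in both mural classes, with standard errors from edgeR. *Epas1* at -0.51 and *Ndufa4l2* at 0.49 in *Myh11* mural cells lie farthest from 0, and none of the values was called. Under other settings the fold change kept its sign for *Higd1a*, *Cox4i1* and *Ndufa4* in *Higd1b* mural cells and for *Cox4i1*, *Ndufa4* and *Epas1* in *Myh11* mural cells. It changed sign in at least 1 setting for the others, *Hif3a* in *Myh11* mural cells by its CPM in whole-cell libraries, where it was not tested. The share of *Higd1b* mural cells with *Higd1a*, at 2000 UMIs a cell, went the other way.

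In *Myh11* mural cells, 164 of 13505 genes were called (1.21%), 204 by DESeq2, and 0 of 8 members. *Epas1* came closest. It had 286 and 353 CPM in WT and 231 and 221 CPM in *Tubb3*-/- mice, without overlap, and differed by -0.51 (SE 0.11, edgeR adjusted p = 0.0816), which DESeq2 called (adjusted p = 0.0188). *Ndufa4l2* had 52.6 and 43.6 CPM against 70.8 and 67.6 CPM, also without overlap, and differed by 0.49 (SE 0.12, edgeR adjusted p = 0.116). With same-numbered mice as blocks the adjusted p-values of edgeR for *Epas1* and *Ndufa4l2* were 0.00996 and 0.0082. The labels tie no pair of mice together, and this block raised the genes called from 164 to 840. With 1 mouse left out, the differences were -0.63 to -0.40 for *Epas1* and 0.34 to 0.68 for *Ndufa4l2*. In the whole-cell libraries alone, *Ndufa4l2* differed by -0.23. Of all genes, 42.8% did not overlap between genotypes in this class. Fibroblast markers of the class summed to 2748 and 2746 CPM in WT against 4471 and 4876 CPM in *Tubb3*-/- mice, also without overlap, and their part in these values was not tested. The genotype effect of the 8 members was also compared between the mural classes by an interaction term in edgeR, which called 0 of them and 0 of 12340 genes (adjusted p of the members from 0.830 to 0.982, 765 genes at an unadjusted p under 0.05, DESeq2 not run). The nearest were *Epas1*, with -0.16 against -0.51, and *Ndufa4l2*, with 0.06 against 0.49.

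In the other classes, 0 of the tested members were called by genotype. The counts over all genes were 37 (0.269%) in *Cdh5* cells and 0 in *Pdgfra*, *Ptprc* and *Epcam* cells, where 3327, 1295 and 770 genes had an unadjusted p under 0.05 in edgeR, and DESeq2 was not run there. The largest difference among the members was that of *Hif1a* in *Cdh5* cells, with 105 and 71.6 CPM in WT and 147 and 115 CPM in *Tubb3*-/- mice, a difference of 0.61 (SE 0.20, edgeR adjusted p = 0.237), in a class where 46.1% of all genes did not overlap between genotypes.

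To compare *Higd1b* itself, mural cells were chosen without it, by *Pdgfrb*, fewer than 3 *Myh11* UMIs, 1 of the pericyte genes *Kcnj8*, *Abcc9* or *Trpc6*, and no UMI of another lineage. Of these 484 cells, 148 (30.6%) held *Higd1b*. It had 125 and 351 CPM in WT and 122 and 185 CPM in *Tubb3*-/- mice, which overlapped, and differed by -0.56 (SE 0.43, edgeR adjusted p = 0.637, 0 of 10140 genes called, 1190 at an unadjusted p under 0.05, and *Higd1b* not called by DESeq2). WT replicate 2 stood apart. Without it the difference was 0.27 and without WT replicate 1 it was -1.08. The pericyte markers of these cells summed to 1244, 2222, 973 and 1197 CPM in the same order of mice, and the fibroblast markers to 12018, 7113, 14572 and 12224 CPM, whose part was not tested. The pericyte sum holds *Kcnj8*, *Abcc9* and *Trpc6*, by which these cells were chosen. Fibroblast markers were thus higher than the 2230 to 5254 CPM of *Higd1b* mural cells and overlapped the 7853 to 12754 CPM of *Pdgfra* cells. The name mural therefore held only in part for this class. In this class *Ndufa4* was also lower than in *Myh11* mural cells (log2 difference -0.60), but *Epas1* was lower too (-0.75) and *Hif3a* was -0.23. Higher levels of these 2 genes were thus not seen in cells chosen in this way, whose fibroblast markers overlapped those of *Pdgfra* cells. The part of those markers in these differences was not tested. The isoform ratios of these cells lay between those of the mural classes. They held 55.5 and 150 UMIs of *Cox4i2* per 100 of *Cox4i1* in WT replicates 1 and 2 and 32.5 and 50.6 in the *Tubb3*-/- mice, and 61.8, 179, 39.8 and 49.9 UMIs of *Ndufa4l2* per 100 of *Ndufa4* in the same order. The second isoform thus exceeded the usual one in WT replicate 2 and not in the other 3 mice. By genotype, *Cox4i2* differed by -1.13 and *Epas1* by -1.07 in these cells, against -0.10 and -0.16 in *Higd1b* mural cells, neither called by edgeR (adjusted p = 0.414 and 0.330).

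The lists around the members showed no called gene by genotype either. In *Higd1b* mural cells, 0 of 24 HIF target genes, 0 of 10 HIF partners and regulators and 0 of 14 other complex IV subunits were called by edgeR, and 0 by DESeq2, with 4 HIF target genes and none of the others at an unadjusted p under 0.05. *Gapdh* differed by 0.42 (SE 0.23) and *Aldoa* by 0.16 (SE 0.19), *Elob* by 0.26 (SE 0.23) and *Rbx1* by 0.20 (SE 0.20), and *mt-Co3* by 0.24 (SE 0.29) and *mt-Co2* by 0.15 (SE 0.27). All 14 complex IV subunits tested had a value above 0, with a median of 0.25 where that of all genes was -0.02, and 9 of them had each *Tubb3*-/- mouse above either WT mouse, as did 18.7% of all genes. The summed smooth muscle markers of this class, given above, were lowest in WT replicate 2 and highest in *Tubb3*-/- replicate 1, and their part in these values was not tested. In *Myh11* mural cells 0 of 28, 0 of 11 and 0 of 15 were called, with medians of -0.07, 0.03 and -0.06. *Higd2a* differed by 0.24 (SE 0.20) and 0.01 (SE 0.09) in the 2 classes. Values above 0 for most complex IV subunits were not particular to *Higd1b* mural cells. They were found for 14 of 17 subunits in *Pdgfra* cells, 12 of 17 in *Cdh5*, 14 of 16 in *Ptprc* and 10 of 16 in *Epcam* cells. The medians there were 0.095, 0.050, 0.13 and 0.13, and none was called. In *Myh11* mural cells 6 of 15 were above 0.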

How the data were processed

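Single lung cells of 2 WT and 2 *Tubb3*-/- mice were profiled with 10x 3′ chemistry. The authors deposited UMI counts for each of 8 libraries, made with Cell Ranger 7.1.0 on mm10 with an added Cre sequence, and sample tags named the mouse of each library. Cells with 200 to 7500 genes and at most 15% mitochondrial UMIs were kept, and doublets were removed with Scrublet (scanpy 1.11.5). Counts were summed per mouse and class over both libraries and scaled to CPM. The sums were tested with edgeR 4.0.16 (quasi-likelihood test, filterByExpr, TMM, Benjamini-Hochberg adjustment, threshold 0.05), tested first on simulated data, and with DESeq2 1.42.0 as an alternative, in R 4.3.3. Ratios and shares were compared by two-sided exact permutation tests (numpy 2.4.6). List genes were named when called by genotype and otherwise as the 2 most abundant of each list. Likeness was ranked for *Cox4i2* and *Ndufa4l2*. The members and lists were chosen with earlier results of these data known. Classes share mice and libraries, and depth limits *Hif3a* most.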

Additional observations from a re-analysis of the deposited data

How the results depend on the processing

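Of 90 results against *Myh11* mural cells under other settings, 87 kept their direction and their side of the threshold, as did 73 of 75 for *Ndufa4*, 72 of 75 for *Hif3a* and 74 of 75 for *Epas1* against all classes. The cause of the changes below was not tested. Values are log2 differences.

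In *Higd1b* mural cells by genotype, *Cox4i2* was 0.053 with at least 2 *Higd1b* UMIs and 0.081 with *Myh11* under 3, and *Hif3a* was -0.035 and -0.43. In whole-cell libraries alone, *Ndufa4l2* was -0.070, *Hif1a* -0.12 and *Epas1* 0.11, and in enriched libraries alone *Hif3a* was -0.023. With mural cells chosen without members, *Ndufa4l2* was -0.73, *Hif3a* -1.46, *Cox4i2* -1.13 and *Epas1* -1.07. *Hif1a* was -0.024 with doublets kept, and *Hif3a* -0.016 with a mitochondrial limit of 10%. Leaving out 1 mouse gave -0.39 to 0.32 for *Cox4i2*, -0.14 to 0.32 for *Hif1a* and -0.068 to 0.11 for *Hif3a*.

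In *Myh11* mural cells by genotype, *Higd1a* was 0.0086 in enriched libraries alone, 0.016 with library totals, 0.014 with no filter and 0.0023 with the replicate block. *Cox4i2* was 0.011 in enriched libraries and 0.064 with at least 10 *Myh11* UMIs, *Hif1a* 0.011 with the latter, and *Ndufa4l2* -0.23 in whole-cell libraries. Leaving out 1 mouse gave -0.13 to 0.14 for *Higd1a* and -0.15 to 0.079 for *Hif1a*. The members called were 0, against 1 with DESeq2, 2 with no filter and 2 with the replicate block, and were 0 to 2 with 1 mouse left out (2 without WT replicate 1). For the *Cox4* ratio in this class, the difference was 0.040 in enriched libraries, 0.13 with at least 10 *Myh11* UMIs and -0.15 to 0.063 with 1 mouse left out, and for the *Ndufa4* ratio it was -0.46 in whole-cell libraries. In *Higd1b* mural cells the ratios ranged from -0.82 to 0.16 and from -0.60 to 0.0092 with 1 mouse left out.

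Between classes, mural cells chosen without members gave -0.75 for *Epas1* and -0.23 for *Hif3a* against *Myh11* mural cells, and 0.014 for *Cox4i1* against *Pdgfra* cells. Against *Pdgfra* cells, library totals gave 0.063 for *Higd1a*, 0.23 for *Cox4i1* and 0.22 for *Hif1a*, DESeq2 gave 0.038 for *Cox4i1* and 0.022 for *Hif1a*, and enriched libraries 0.034 for *Cox4i1*. Against *Cdh5* cells, *Higd1a* was 0.16 in enriched libraries, 0.016 with DESeq2, 0.035 with library totals and -0.10 to 0.037 with 1 mouse left out, *Cox4i1* -0.11 in whole-cell libraries and -0.10 with *Myh11* under 3, and *Hif1a* 0.062 in enriched libraries. Against *Ptprc* cells, *Higd1a* was 0.14 in enriched libraries, 0.088 with DESeq2, 0.38 with library totals and -0.096 to 0.079 with 1 mouse left out. Against *Epcam* cells, *Hif1a* was -0.23 with *Myh11* under 3.

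*Higd1b* in mural cells chosen without it ranged from -1.08 to 0.27 with 1 mouse left out, an alternative chosen after seeing the data, as was the count over the lists. List genes called were 0, against 6 with no filter, 5 with the replicate block and 0 to 6 with 1 mouse left out (6 without WT replicate 1, 2 without WT replicate 2).

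Over all genes, 0 were called by genotype in *Higd1b* mural cells, against 2 in whole-cell libraries, 1 with DESeq2, 165 with no filter, 86 with the replicate block, 609 without WT replicate 1 and 88 without WT replicate 2. In *Myh11* mural cells 164 were called, against 35 in whole-cell libraries, 68 in enriched libraries, 5 with at least 10 *Myh11* UMIs, 267 with lineage markers at 2 or more UMIs, 890 with no filter, 840 with the replicate block, 451 without either WT replicate and 61 without *Tubb3*-/- replicate 2. The deviations of same-numbered mice correlated at 0.30 and 0.21 in the mural classes, but the labels tie no pair of mice together, so that the block shares only a number. With 1 mouse left out, the lone mouse of a genotype is assumed to vary like the others.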
